A study of Danio rerio with 18 samples.

Results

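The stretch described here is the part of zebrafish 28S rRNA whose methylated sites carry numbers of at least 3800 and under 4000 in the authors' names, which follow human numbering. Its members were taken from the authors' list by that number alone, and the rule uses no measured value. The range itself, which holds 28S-Cm3916, was chosen with earlier results of these data known. The members are 9 of the 98 listed sites of the series, and 9 of the 60 in 28S rRNA. In order along the RNA they are 28S-Am3804, 28S-Am3809, 28S-Cm3820, 28S-Cm3848, 28S-Cm3866, 28S-Gm3878, 28S-Um3904, 28S-Cm3916 and 28S-Gm3923, where the letter before m is the nucleotide. The 4 cytidines, 2 adenosines, 2 guanosines and 1 uridine lie within 120 positions, 3085 to 3204 of the early 28S rRNA and 2973 to 3092 of the late one. The outermost members, 28S-Am3804 and 28S-Gm3923, had median scores of 0.941 and 0.742 over libraries, and the nearest listed sites outside the range, 28S-ᴪm3797 and 28S-Cm4032, had 0.923 and 0.891.

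A methyl group on the 2'-oxygen of the ribose is placed on rRNA by fibrillarin, guided to each nucleotide by a box C/D snoRNA whose antisense element pairs with the rRNA around it. The methyl group blocks alkaline cleavage of the neighbouring bond, so in RiboMeth-seq a methylated nucleotide is under-represented among fragment ends. Zebrafish carry an early (maternal) rRNA, made in the egg, and a late (somatic) rRNA that replaces it during development. The stretch lies in the 3' part of 28S rRNA, close to the start of domain V, the domain that holds the peptidyl transferase centre of the ribosome.

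The study followed the methylation through development in 14 libraries. Of these, 3 came from unfertilized eggs, 3 from embryos of 32 cells, 3 from embryos of 12 somites, 3 from larvae at the protruding-mouth stage and 2 from adult tail (trunk). The labels name no strain, genotype, treatment or age for any group. Replicates were biological, per the series' design text. The adult was sampled as 1 body part and the other groups are labelled by stage, so adult stage and tissue cannot be told apart. The authors mapped the first 3 stages to the early rRNA and the last 2 to the late rRNA, so any comparison across that line also compares mapping references.

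The early sequence of the stretch, from position 3079 to 3210 of the deposited early 28S sequence, is shown so that the sites can be found in it. Capitals mark the 9 sites in their order.
Early 28S: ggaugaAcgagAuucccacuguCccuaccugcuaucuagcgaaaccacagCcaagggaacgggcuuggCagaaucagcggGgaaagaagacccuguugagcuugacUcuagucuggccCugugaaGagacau
Early and late rRNA differed at 1 base within 6 positions of the stretch, C3196A, given as early base, early position and late base. It lies immediately 5' of 28S-Cm3916. The same 31 positions are given from both deposited sequences, early 3182 to 3212 and late 3070 to 3100. Capitals mark the differing base and, right after it, 28S-Cm3916.
Around Cm3916 early: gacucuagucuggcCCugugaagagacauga
Around Cm3916 late: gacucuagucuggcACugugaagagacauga
This base lies 8 positions 5' of 28S-Gm3923 and 11 positions 3' of 28S-Um3904. Within 6 positions on either side, the other 8 sites had the same sequence in early and late rRNA.

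The RiboMeth-seq score used below is 1 minus the read ends at a nucleotide over the weighted mean of its 6 neighbours on each side, set to 0 where negative. A score near 1 is read as nearly complete methylation and a score near 0 as none. Libraries held from 1494730 read ends (adult tail A) to 15358081 (egg 1), of which 1.5% to 2.98% fell in the stretch. The mean number of read ends at the neighbours of a member was at least 50.25 in every library, reached at 28S-Cm3848 in 12-somite library 3. The barcodes used for the libraries were shared in part between stages and are coded a to g here. The 2 adult tail libraries are called A and B, since the numbers over their columns did not match their titles.

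Of the 9 sites, 5 scored at least 0.75 in all 14 libraries, which is 55.6% of the sites, against 71 of the other 89 sites, or 79.8%. The exceptions were 28S-Um3904, 28S-Cm3916 and 28S-Gm3923 at the 3' end and, in 1 adult tail library, 28S-Cm3820. From 5' read ends alone, 28S-Um3904 and 28S-Gm3923 scored at least 0.892 in the 12 libraries outside adult tail. At 28S-Gm3923 some of these scores rested on few 5' ends. Which kind of end gives the methylation level at these sites was not tested. The mean over libraries of the median of the 9 sites was 0.923 ± 0.0152 (SD, n = 3) in eggs, 0.924 ± 0.00130 (n = 3) in 32-cell embryos, 0.898 ± 0.0143 (n = 3) in 12-somite embryos, 0.903 ± 0.0193 (n = 3) in protruding-mouth larvae and 0.920 ± 0.0216 (n = 2) in adult tail. Over all 98 sites the same measure lay between 0.933 at 12-somite and 0.948 in egg. The stage means of 5 of the 9 sites spanned at least 0.1, which is 55.6%, against 30 of all 98 sites, or 30.6%. These 5 include 28S-Um3904 and 28S-Gm3923, which were scattered within stages. The median span was 0.110 over the 9 sites and 0.0645 over all sites.

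**Figure D1:**
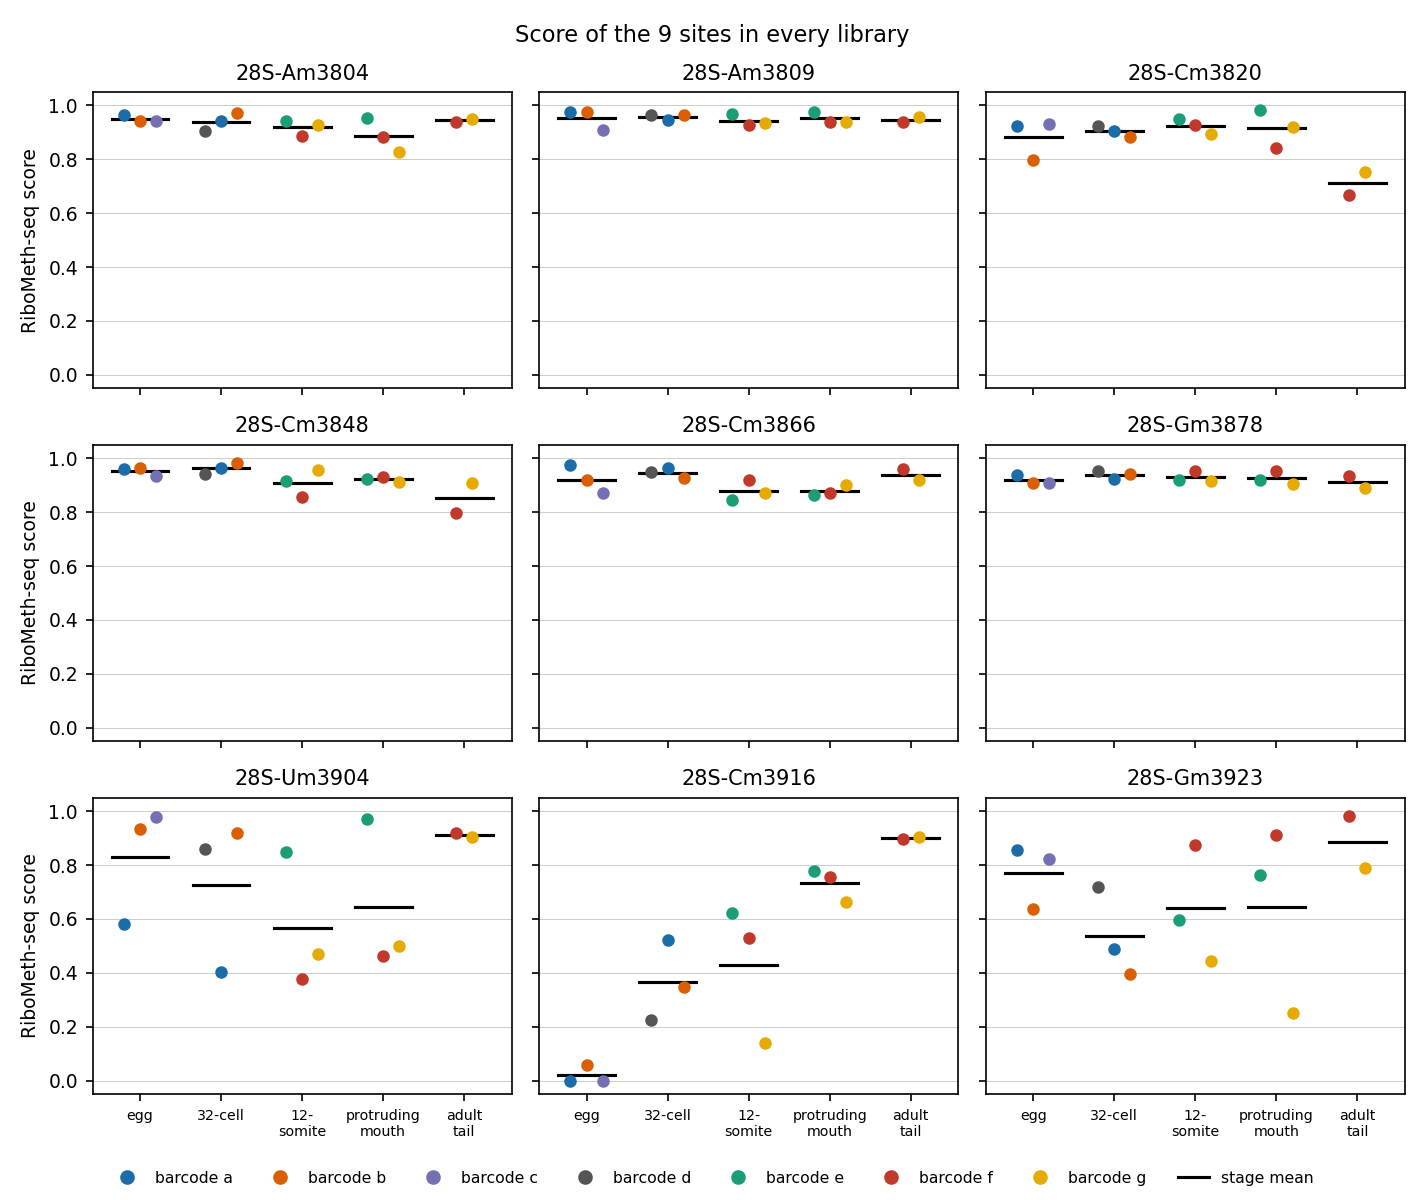
Score of each of the 9 sites (vertical axis, RiboMeth-seq score, no unit) in the 14 libraries grouped by stage (horizontal axis); each point is 1 library coloured by barcode and each bar is the stage mean. The first 6 panels lie near the top except 28S-Cm3820 in adult tail (0.669 and 0.754), 28S-Cm3916 climbs from left to right, and 28S-Um3904 and 28S-Gm3923 are scattered within stages.

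28S-Cm3916, a cytidine, scored high in adult tail and near 0 in egg from both kinds of read end together, with intermediate scores at the stages between. Its difference between adult tail and egg was the largest in absolute size of the 98 sites. The egg libraries scored 0, 0.0579 and 0. In those libraries the cytidine had 3216, 2409 and 2909 read ends, against 3122, 2557 and 2562 expected from its neighbours. Both kinds of end together were thus about as frequent there as at the nucleotides around it. In each egg library 5' ends at the site exceeded their neighbour mean (1979, 1430 and 2310 against 1487.5, 1331 and 1754). The 3' ends lay below theirs in each. The 32-cell libraries scored 0.226, 0.522 and 0.346. The 12-somite libraries scored 0.622, 0.528 and 0.138, so that library 3 lay below all 3 of the 32-cell libraries. The protruding-mouth libraries scored 0.779, 0.757 and 0.663, and the adult tail libraries 0.898 and 0.904. No library of a stage reached into the next stage's range except between 32-cell and 12-somite.

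In the 12-somite libraries the counting error was smaller than the spread between libraries. The 95% Poisson interval of the score ran from 0.101 to 0.173 in 12-somite library 3 and from 0.591 to 0.652 in 12-somite library 1. In adult tail A, the shallowest library, 50 read ends against 490 expected gave an interval of 0.865 to 0.924. These intervals cover counting error in the ends at the site only.

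Both kinds of read end carried this increase, though not at the same level in egg. From 5' ends alone, used here for the 12 libraries outside adult tail, 28S-Cm3916 scored 0 in all 3 egg libraries and 0.403, 0.555 and 0.190 in the 32-cell libraries. It scored 0.548, 0.152 and 0.415 in the 12-somite libraries, the last from only 4 read ends against a neighbour mean of 6.58. The protruding-mouth libraries scored 0.682, 0.774 and 0.734 from 5' ends. The egg and protruding-mouth ranges did not overlap. From 3' ends alone the egg libraries scored 0.229, 0.201 and 0.231, the 32-cell libraries 0.183, 0.515 and 0.375, the 12-somite libraries 0.628, 0.637 and 0.137, and the protruding-mouth libraries 0.832, 0.744 and 0.661. The ranges of protruding-mouth and egg stayed apart here too, while the 32-cell and 12-somite libraries reached below the egg values.

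**Figure D2:**
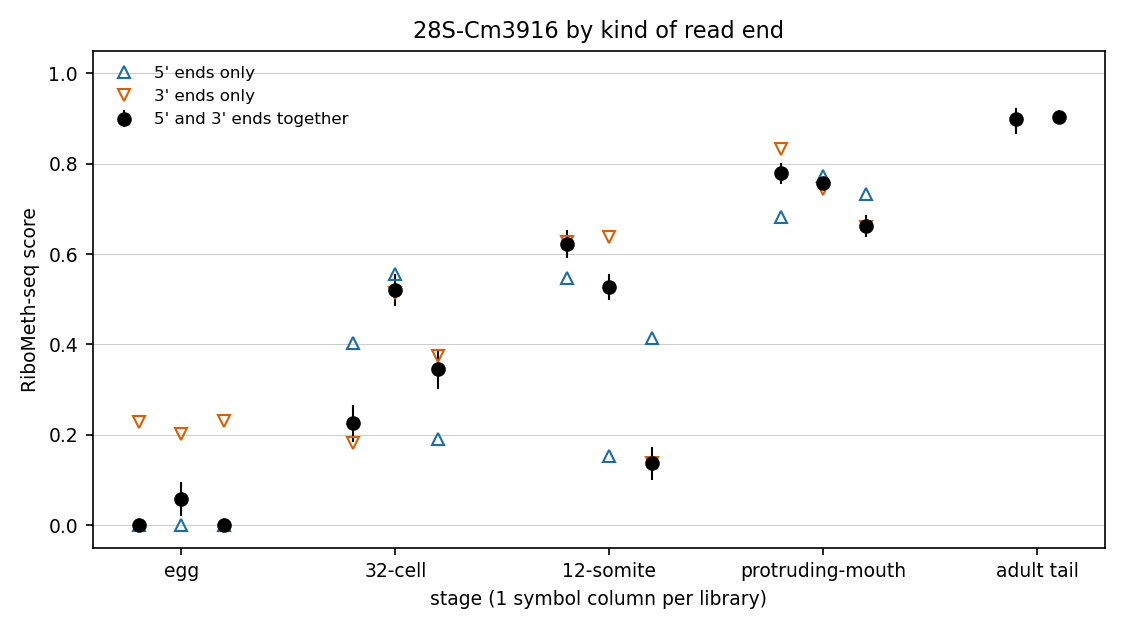
Score of 28S-Cm3916 (vertical axis, RiboMeth-seq score) in each library by stage (horizontal axis), from both kinds of read end (filled circles, with 95% Poisson intervals), from 5' ends (upward triangles) and from 3' ends (downward triangles, negative scores set to 0). The 3 protruding-mouth libraries lie between 0.661 and 0.832 by any of these measures, all above the 3 egg libraries, which lie between 0 and 0.231.

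In the read ends themselves, the later stages had a gap at this nucleotide. Relative to the mean of the 24 nearest positions, read ends at 28S-Cm3916 were 1.06 ± 0.152 (SD, n = 3) in eggs, 0.605 ± 0.177 (n = 3) in 32-cell embryos, 0.660 ± 0.384 (n = 3) in 12-somite embryos, 0.273 ± 0.0460 (n = 3) in protruding-mouth larvae and 0.120 ± 0.00331 (n = 2) in adult tail. The base just 5' of it, which is C in early and A in late rRNA, had 0.844 ± 0.447 (SD, n = 2) in adult tail and 0.998 ± 0.159 (n = 3) in egg. At 28S-Gm3923, 7 positions downstream, the relative read ends were 0.243 ± 0.112 in egg, so the dip at that guanosine was already there.

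**Figure D3:**
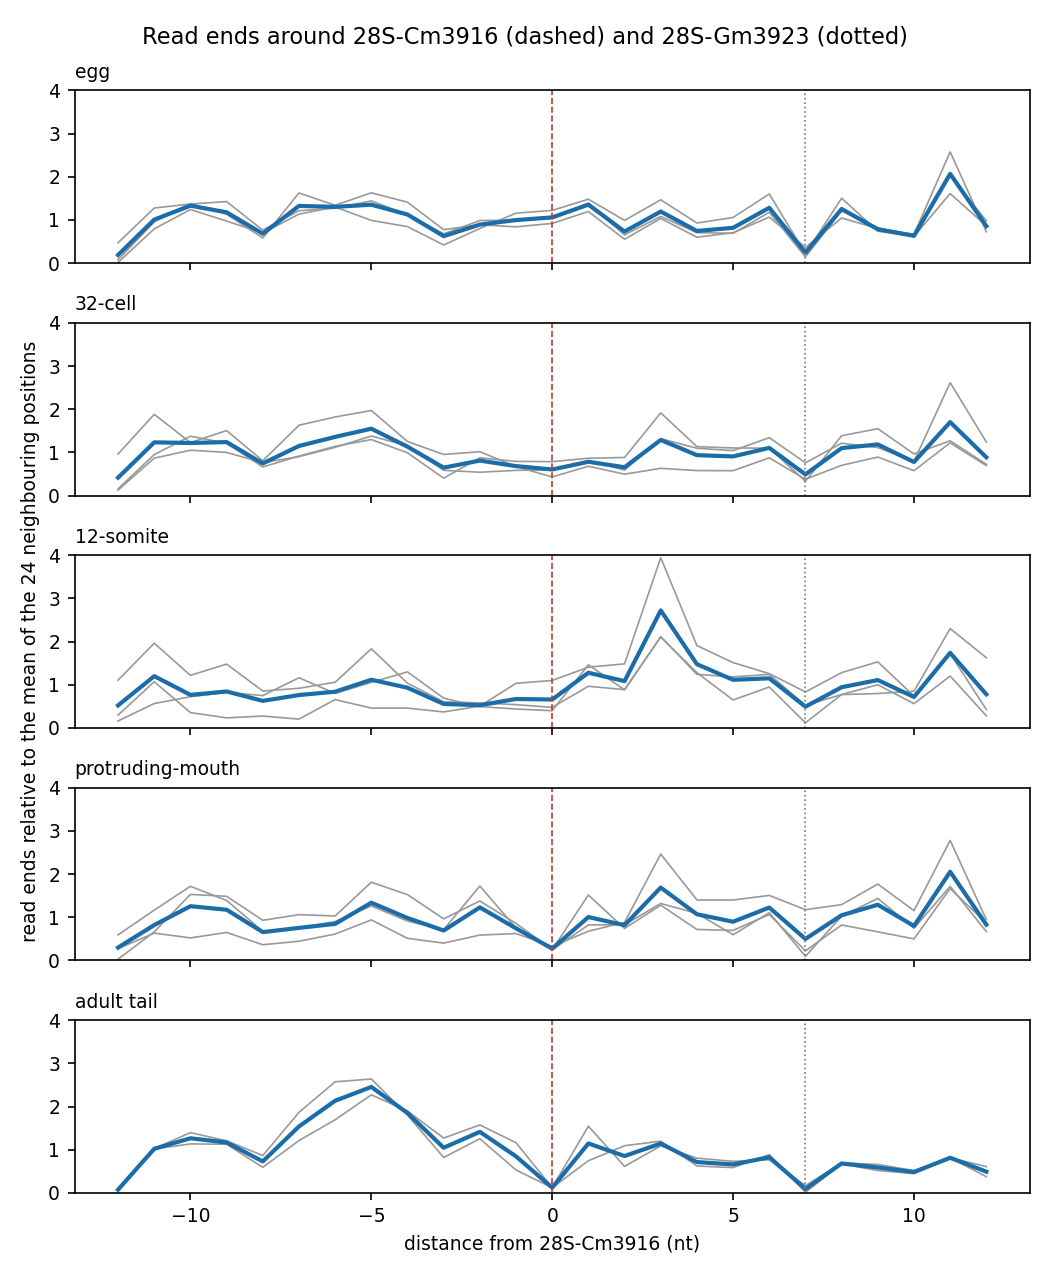
Read ends relative to the mean of the 24 neighbouring positions (vertical axis, ratio) against distance from 28S-Cm3916 in nucleotides (horizontal axis), 1 panel per stage; grey lines are libraries, the blue line is the stage mean, the dashed line marks 28S-Cm3916 and the dotted line 28S-Gm3923. At the dashed line the stage mean is 1.06 in egg, 0.273 at protruding-mouth and 0.120 in adult tail, while the stage mean dips at the dotted line in all 5 panels.

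The scores were tested with limma over all 98 sites, with Benjamini-Hochberg adjustment within each comparison and a threshold of 0.05. Protruding-mouth exceeded egg at 28S-Cm3916 by 0.714 (SE 0.109, limma adjusted p = 0.00542), with a 95% interval of 0.471 to 0.956. It was the 1 member called of 9, against 2.04% of all 98 sites. The call held in all 27 alternatives run, 1 of which repeated the main fit, with adjusted p from 2.48e-05 to 0.0365. Adult tail exceeded egg there by 0.882 (SE 0.122, limma adjusted p = 0.00142), again the 1 member of 9 called, against 3.06% of all sites. The quasi-binomial model of the counts was the 1 of 25 alternatives that did not call it, with an adjusted p of 0.0961. Over all 5 stages 28S-Cm3916 was also the 1 member called (limma F test, adjusted p = 0.0109), against 3.06% of all sites. Without adult tail A the adjusted p was 0.0773, without adult tail B 0.0791, in the 4 stages without adult tail 0.110, and with the replicate number as a block 0.129.

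Both called differences cross the change of mapping reference and the base change C3196A next to the site, so their share in the difference cannot be told apart from that of stage. Barcode cannot be told apart from stage in them either, since egg had barcodes a, b and c, protruding-mouth e, f and g, and adult tail f and g. Comparisons within 1 reference had smaller differences at 28S-Cm3916 than the called ones. So did protruding-mouth against 12-somite, which also crosses the references (0.304). Limma called none of the 9 sites in the comparisons within 1 reference except in adult tail against protruding-mouth. Among libraries mapped to the early rRNA, 28S-Cm3916 was 0.345 higher at 32-cell than in egg (SE 0.109, limma adjusted p = 0.432) and 0.410 higher at 12-somite than in egg (SE 0.109, limma adjusted p = 0.173). Every 32-cell and every 12-somite library lay above every egg library. In both comparisons limma called 0 of the 9 sites and 0% of all 98. Among the 9, the limma unadjusted p was under 0.05 at 1 site, this one. Unadjusted, 5.1% of all sites passed with limma at 32-cell and 9.18% at 12-somite. The quasi-binomial model called 0 of the 9 after adjustment. Unadjusted, it passed 1 of the 9 at 32-cell and 2 at 12-somite, and its share over all 98 sites is not given here.

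Both comparisons were called at 28S-Cm3916 in 3 of their alternatives, without 12-somite library 3, on the logit scale and with the logit of the barcode-corrected scores. Without that library the limma adjusted p was 0.0395 for 32-cell against egg and 0.00228 for 12-somite against egg. On the logit scale with all libraries the limma adjusted p was 0.00503 and 0.00288. Scores were limited to 0.01 to 0.99 before the logit. That limit set the logit values of egg libraries 1 and 3, which scored 0. Where stages shared barcodes the later library was higher in each pair, as it had to be, since the ranges of those stages did not overlap. With barcode a, 32-cell library 2 exceeded egg library 1 by 0.522, and with barcode b, 32-cell library 3 exceeded egg library 2 by 0.288. Protruding-mouth exceeded 12-somite within barcodes e, f and g by 0.157, 0.229 and 0.525.

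Neighbouring stages did not differ past the threshold at 28S-Cm3916. The difference was 0.0649 for 12-somite against 32-cell (SE 0.109, limma adjusted p = 0.885), with a 95% interval of -0.178 to 0.307. It was 0.304 for protruding-mouth against 12-somite (SE 0.109, limma adjusted p = 0.463), which crosses the change of mapping reference. For adult tail against protruding-mouth it was 0.168 (SE 0.122, limma adjusted p = 0.589). For 12-somite against 32-cell and for protruding-mouth against 12-somite, limma called 0 of 9 sites and 0% of all sites. With limma unadjusted, 1 of 9 members passed in each, against 5.1% and 6.12% of all sites. That member was 28S-Cm3866 in the first, 0.0677 lower at 12-somite, and 28S-Cm3916 in the second. The quasi-binomial model called 0 of 9 members in both after adjustment. Unadjusted, it passed 2 of 9 in the first and 1 of 9 in the second, and its share over all sites is not given here.

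28S-Um3904, the only uridine among the listed sites of the stretch, and 28S-Gm3923, the listed guanosine nearest 28S-Cm3916, varied more between libraries of 1 stage than nearly all other listed sites. Their pooled within-stage SDs were 0.244 and 0.220, ranks 2 and 4 of the 98 sites, against a median of 0.0360. 28S-Um3904 scored 0.581, 0.933 and 0.980 in the egg libraries, 0.859, 0.404 and 0.919 in the 32-cell libraries, 0.848, 0.377 and 0.470 in the 12-somite libraries, 0.970, 0.463 and 0.501 in the protruding-mouth libraries and 0.919 and 0.904 in the adult tail libraries. The low values, 0.581 and under, came from libraries with barcodes a, f and g, and with barcodes b, c, d and e every library was at 0.848 or above. The adult tail libraries had barcodes f and g as well and were high.

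28S-Gm3923 scored 0.854, 0.637 and 0.822 in the egg libraries, 0.720, 0.489 and 0.397 in the 32-cell libraries, 0.597, 0.876 and 0.445 in the 12-somite libraries, 0.764, 0.912 and 0.252 in the protruding-mouth libraries and 0.981 and 0.790 in the adult tail libraries. The egg, 32-cell, 12-somite and protruding-mouth ranges overlapped one another, and the lowest and the highest of these 12 libraries were both protruding-mouth libraries.

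The scatter of both sites lay in 3' read ends. From 5' ends alone, 28S-Um3904 scored between 0.906 and 0.991 and 28S-Gm3923 between 0.892 and 1 in all 12 libraries. Some of these 28S-Gm3923 scores rested on few 5' ends. In 12-somite library 3 there were 0 against a neighbour mean of 4.17. Protruding-mouth 3 had 3 against 43.6, where the neighbour mean of 3' ends was 3390. From 3' ends alone, 28S-Um3904 ranged from 0 to 0.954 and 28S-Gm3923 from 0.244 to 0.909. The within-stage SD from 3' ends was 0.440 at 28S-Um3904, the highest of the 98 sites, against 0.0255 from its 5' ends. At 28S-Gm3923 it was 0.231 from 3' ends and 0.0366 from 5' ends. Across the series 78 of 98 sites had the larger SD in 3' ends, and the median SD was 0.0590 from 3' ends and 0.0219 from 5' ends. In the stretch it was larger in 3' ends at 8 of 9 sites, the exception being 28S-Am3809.

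**Figure D4:**
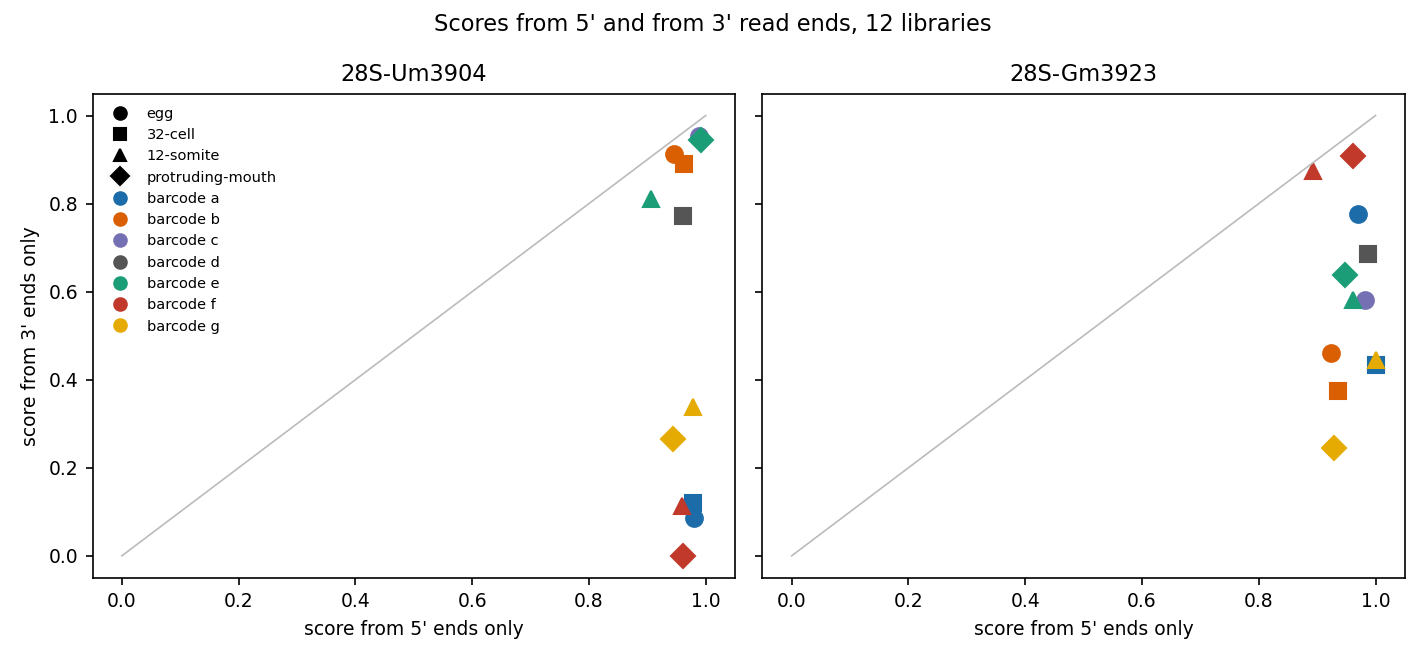
Score from 3' ends (vertical axis) against score from 5' ends (horizontal axis) at 28S-Um3904 (left) and 28S-Gm3923 (right) in 12 libraries; symbol shape gives the stage, colour the barcode, and the grey line equality. All points lie at 0.892 or above on the horizontal axis, while they spread from 0 to 0.954 on the vertical axis at 28S-Um3904 and from 0.244 to 0.909 at 28S-Gm3923.

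The authors' deposited table gives stage means in which some values were corrected for a barcode effect, and of the members it did so at these 2 sites. Rebuilding the means showed 8 replaced library values. At 28S-Um3904 they were egg 1, 32-cell 2, 12-somite 2 and protruding-mouth 2 and 3, and at 28S-Gm3923 protruding-mouth 1 and 3 and adult tail B. Which libraries were corrected is inferred from the means. The authors' deposited table gives 28S-Um3904 means of 0.964 in eggs, 0.919 in 32-cell embryos, 0.759 in 12-somite embryos, 0.958 in protruding-mouth larvae and 0.912 in adult tail. 12-somite library 3 kept its uncorrected 0.470 in that mean, although its score from 5' ends was 0.979. For 28S-Gm3923 the authors' deposited table gives 0.930 at protruding-mouth and 0.960 in adult tail, and leaves the other stages as measured, with 0.535 at 32-cell the lowest. The other 39 of the 45 stage means were identical to the means of the stage sheets.

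Neither site was called by limma in any stage comparison of the uncorrected scores without a block. Adult tail minus protruding-mouth was 0.267 at 28S-Um3904 (SE 0.208, limma adjusted p = 0.615) and 0.243 at 28S-Gm3923 (SE 0.187, limma adjusted p = 0.615). With barcode as a block the first became 0.419 (SE 0.0435, limma adjusted p = 0.00568). Within barcode f, adult tail A exceeded protruding-mouth 2 by 0.456, and within barcode g, adult tail B exceeded protruding-mouth 3 by 0.404. With the barcode-corrected scores and no block the same difference was -0.0467 (limma adjusted p = 0.926). The uncorrected scores thus gave a call with the block and none without it, and the sign differed between uncorrected and corrected scores. From 5' ends alone, which leave out adult tail, the differences at 28S-Um3904 in the 5 comparisons of the other stages were between -0.0234 and 0.0174. At 28S-Gm3923, adult tail against egg was called only with the logit of the barcode-corrected scores (limma adjusted p = 0.0494).

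28S-Cm3820 was lower in adult tail than in protruding-mouth larvae. The adult tail libraries scored 0.669 and 0.754, against 0.984, 0.844 and 0.921 in the protruding-mouth libraries. The egg libraries scored 0.923, 0.798 and 0.933, the 32-cell libraries 0.925, 0.904 and 0.882, and the 12-somite libraries 0.951, 0.929 and 0.895. Both adult tail libraries thus lay below all 12 other libraries. Adult tail minus protruding-mouth was -0.205 (SE 0.0475, limma adjusted p = 0.0351), with a 95% interval of -0.310 to -0.0994. It was the 1 member of 9 called, against 6.12% of all 98 sites.

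The direction held in all 26 alternatives, and the call in 13 of them, with adjusted p from 0.0256 to 0.667. It was lost without 32-cell library 3 (0.0598), protruding-mouth 1 (0.106) or 3 (0.0896), or adult tail A (0.412) or B (0.0799), and in the quasi-binomial model (0.667). Within barcode f the difference was -0.174 and within barcode g -0.167, and with barcode as a block it was -0.181 (SE 0.0385, limma adjusted p = 0.0674). Adult tail A had 49 read ends at the site against a neighbour mean of 144, so its 95% Poisson interval was 0.563 to 0.755. From 5' ends alone the 12 libraries of the other stages scored from 0.981 to 1, and from 3' ends alone from 0.682 to 0.979. The within-stage SD was 0.00467 from 5' ends and 0.0782 from 3' ends. Adult tail was not scored by kind of end, so its lower score was not compared on either kind alone.

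Adult tail was also lower than egg at 28S-Cm3820, by a difference of -0.173 (SE 0.0475, limma adjusted p = 0.103), and at 28S-Cm3848, by -0.100 (SE 0.0331, limma adjusted p = 0.132). Neither passed, though both passed unadjusted, so that 3 of the 9 sites had an unadjusted p under 0.05 against 12.2% of all sites. Leaving out egg library 2, the lowest egg library at 28S-Cm3820, had to widen the difference there, and the limma adjusted p was then 0.0145. 28S-Cm3848 scored 0.798 and 0.908 in adult tail, against 0.961, 0.965 and 0.935 in egg, and the ranges did not overlap. Without adult tail B the difference at 28S-Cm3848 was -0.155. It then rested on adult tail A alone, the shallowest library, which had 22 read ends there against 109 expected. The median absolute difference between adult tail and egg was 0.0801 over the 9 sites and 0.0291 over all 98. The median over the 9 was the value of 28S-Um3904, whose scores were scattered within stages and whose 95% interval ran from -0.380 to 0.540.

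**Figure D5:**
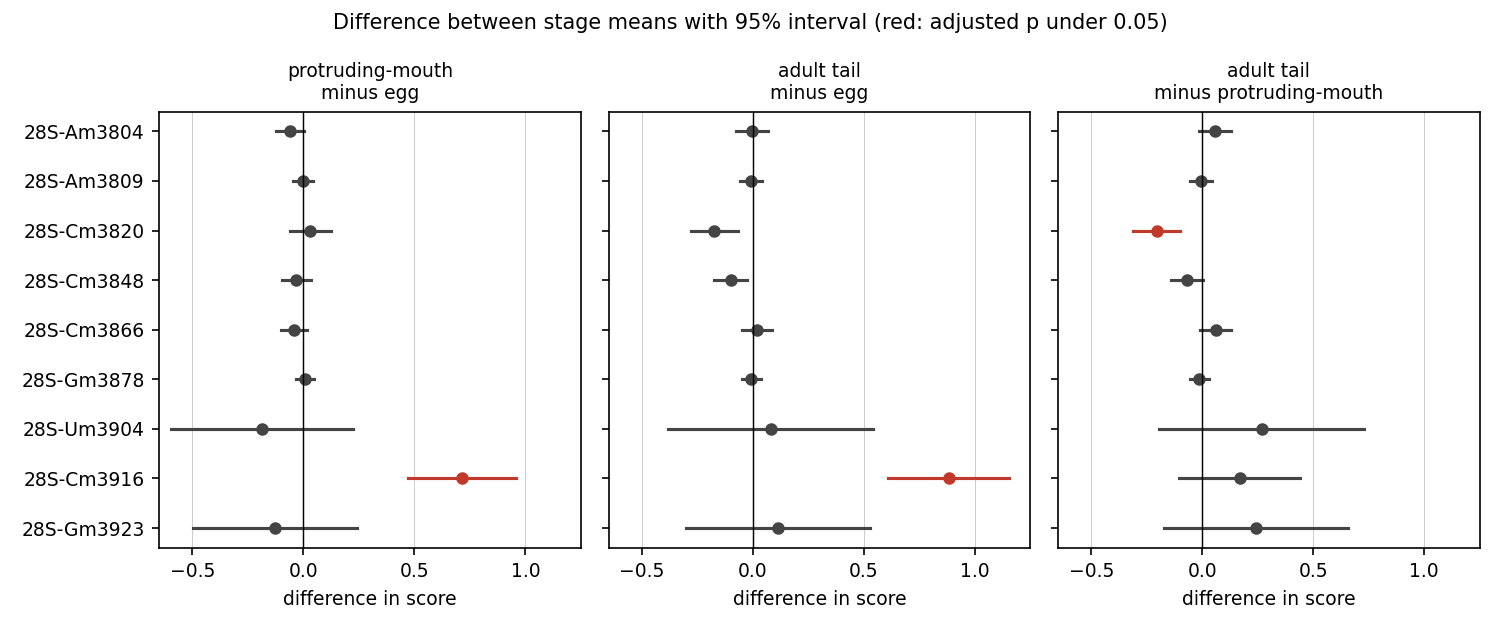
Difference in score (horizontal axis) for the 9 sites (vertical axis, in order along the RNA) in 3 comparisons; points are limma differences of stage means, lines their 95% intervals, and red marks an adjusted p under 0.05. 28S-Cm3916 is red in both comparisons with egg (0.714 and 0.882) and 28S-Cm3820 in adult tail against protruding-mouth (-0.205), while the intervals of 28S-Um3904 and 28S-Gm3923 are wide and cross 0.

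The other 4 sites scored at least 0.827 in every library. 28S-Am3804 ranged from 0.827 to 0.971 over the 14 libraries with a median of 0.941, and its lowest library was protruding-mouth 3. 28S-Am3809 ranged from 0.910 to 0.977 with a median of 0.953, and its stage means spanned 0.0155, rank 91 of 98. These adenosines are 5 positions apart, so each lies among the neighbours that set the other's score. 28S-Cm3866 ranged from 0.845 to 0.974 with a median of 0.918, and 28S-Gm3878 from 0.890 to 0.954 with a median of 0.921. None of the 4 was called in any comparison with limma. Among them the largest difference between adult tail and egg was 0.0175, at 28S-Cm3866, with a 95% interval of -0.0504 to 0.0854. The intervals of the other 3 in that comparison lay within -0.0756 and 0.0674. Other comparisons had wider ones: protruding-mouth minus egg was -0.0606 at 28S-Am3804, with a 95% interval of -0.125 to 0.00336. At 28S-Cm3866, 12-somite minus 32-cell was -0.0677, with a 95% interval of -0.128 to -0.00701, and adult tail minus protruding-mouth was 0.0600, with -0.00787 to 0.128.

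The 9 sites did not move together across libraries. Pearson's r between pairs of members over the 14 libraries ran from -0.610 for 28S-Cm3848 with 28S-Cm3916 to 0.536 for 28S-Am3804 with 28S-Um3904. 28S-Cm3916 had r of 0.159 with 28S-Gm3923 and -0.0103 with 28S-Um3904, its nearest neighbours. Among the 29 other listed sites whose stage means spanned at least 0.1, the scores most like those of 28S-Cm3916 were at 28S-Am1521 (r = 0.689), 28S-Gm2817 (r = 0.544) and 18S-Gm509 (r = 0.455), each over 14 libraries. These are descriptions, and the sites of a library share its depth, barcode and fragmentation.

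Between the listed sites, the 111 other positions of the stretch mostly scored low. Their stage means had a median of 0.0608 in eggs, 0.0821 in 32-cell embryos, 0.146 in 12-somite embryos, 0.122 in protruding-mouth larvae and 0.0473 in adult tail. None scored at least 0.75 in all 14 libraries. Adult tail minus egg ran from -0.252 at position 3123 to 0.284 at position 3127 of the early rRNA, so no unlisted position differed as much as 28S-Cm3916. The base that differs between early and late rRNA, position 3196, had a mean score of 0.310 ± 0.360 (SD, n = 2) in adult tail and 0.0731 ± 0.103 (n = 3) in egg.

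An unlisted adenosine at early position 3168 scored higher than the others at several stages. Its mean was 0.438 ± 0.0976 (SD, n = 3) in eggs, 0.803 ± 0.0472 (n = 3) in 32-cell embryos, 0.833 ± 0.0652 (n = 3) in 12-somite embryos, 0.761 ± 0.169 (n = 3) in protruding-mouth larvae and 0.544 ± 0.0787 (n = 2) in adult tail. The cytidine right after it, position 3169, took a similar course, with means of 0.340, 0.759, 0.778, 0.664 and 0.397 in the same order. The guanosine right before it, position 3167, reached a mean of 0.704 in 12-somite embryos. High scores were thus not confined to the adenosine. These positions were singled out after their values were seen, and none was tested.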

How the data were processed

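RiboMeth-seq libraries of 20 to 40 nt alkaline RNA fragments were sequenced on an Ion Proton, per the labels' protocols, and the submitters' processing notes name cutadapt 2.0 and Bowtie2 2.3.4.1. The deposited counts give read 5' ends, 3' ends and both together per rRNA position, without normalization, and for adult tail the counts of both together were used. The authors' deposited score per library is a fraction from 0 to 1, and their overview gives stage means of that score, some with a barcode correction, per the file headers. The score was recomputed from the counts for all 14 libraries. Outside adult tail it differed from the deposited fraction by at most 5.00e-13. For adult tail only counts were used, so its library scores were not compared with a deposited fraction. In the stage sheets 34 columns of library values were not used, and the 4 small-RNA samples were not used.

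Scores were compared with limma 3.58.1 (R 4.3.3), with stage means as the model and Benjamini-Hochberg adjustment over 98 sites. The contrast of adult tail with egg was run on simulated scores with independent normal noise and a known shift in adult tail. Those scores had no limit at 0 and no barcode effect, unlike the real ones. All 9 sites were named by rule, with values in each comparison for called members and 28S-Cm3916, and the 3 most similar sites outside. Any other value was chosen after it was seen. The number range and the lists were chosen with earlier results of these data known. A minimum mean of 10 read ends at the neighbours left out 0 sites. The alternative without a minimum, counted with the others, therefore repeated the main fit. Same-numbered libraries of 32-cell, 12-somite and protruding-mouth deviated together (r from 0.199 to 0.588 across sites), and 12-somite and protruding-mouth shared barcodes by number, while those of egg did not (r from -0.575 to -0.00416), so the replicate number was an alternative block. The other alternatives were the logit, 2 flanking positions, 5' ends only, trend and robust fits, centred libraries, the 2 stages alone, barcode as a block, a minimum of 50, a quasi-binomial model and leaving out each library. Chosen after seeing the data were barcode-corrected scores, also with the logit, scores not limited at 0, and the replicate block within 3 stages. Tables used Python 3.11.15, numpy 2.4.6, pandas 2.3.3 and matplotlib 3.10.9.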

Additional observations from a re-analysis of the deposited data

How the results depend on the processing

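The count of members called stayed the same in all alternatives for protruding-mouth against egg (27), 12-somite against 32-cell (28) and protruding-mouth against 12-somite (29). For 32-cell against egg and for 12-somite against egg it was 1 in place of 0 with the logit and with the logit of barcode-corrected scores, and 0 to 1 with libraries left out in turn (1 without 12-somite 3). For adult tail against egg it was 2 in place of 1 with the logit of barcode-corrected scores and 0 in the quasi-binomial model. With libraries left out it was 1 to 2 (2 without egg 2), leaving aside the fits with 1 adult tail library. For adult tail against protruding-mouth it was 0 in place of 1 with the logit, 2 flanking positions, trend and robust, centred libraries, only the 2 stages, the quasi-binomial model and the logit of barcode-corrected scores, and 0 to 1 with libraries left out. With barcode as a block it was 1, but 28S-Um3904 and not 28S-Cm3820. Over all 5 stages it was 0 in 4 stages without adult tail and 0 with the replicate block, 2 with the logit of barcode-corrected scores, and 0 to 2 with libraries left out (2 without egg 2, 0 without adult tail A or B). The replicate block changed no other count. 28S-Cm3916 in 12-somite against 32-cell changed sign to -0.0114 with 5' ends only, -0.00426 without 32-cell 1 and -0.0316 without 12-somite 1, within a range of -0.0316 to 0.211 with libraries left out. The share of all 98 sites called in each alternative is not given here. The counts above therefore do not show whether a change was particular to the stretch. The cause of these changes was not tested. The stage mean of 28S-Um3904 at protruding-mouth was 0.644 as measured and 0.958 in the authors' deposited table. The fewest read ends around a member were in 12-somite 3, with a neighbour mean of 50.25 at 28S-Cm3848.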
